A study of Mus musculus with 8 samples.

Results

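The mouse retrovirus MERVL was followed through its 2 entries in the count table, MERVL-int and MT2_Mm, chosen by name as the repeat entries that start with these words. MERVL-int is the internal, protein-coding part of the element, and MT2_Mm is the long terminal repeat (LTR) that flanks it and serves as its promoter. Both belong to the ERVL family of LTR elements in the table. They are 2 of 25215 entries, of which 24062 are genes and 1153 are repeat subfamilies, and both were among the 15287 entries (14393 genes and 894 repeat subfamilies) that passed the filter on low counts. Each entry adds up the reads of many near-identical genomic copies, so no single locus, position or strand can be given for the transcripts.

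MERVL is a retrovirus-derived element that is transcribed in the mouse embryo at the 2-cell stage, when its MT2_Mm LTRs also act as promoters of nearby genes, and it is then silenced. In embryonic stem cells the same program reappears in rare 2-cell-like cells, where the homeobox factor Dux binds the LTR and activates it. Repression has been tied to H3K9 methyltransferases, the histone demethylase KDM1A, the corepressor TRIM28 and non-canonical forms of the Polycomb complex PRC1. PRC1 places ubiquitin on histone H2A through RING1A or RING1B, and PRC2 methylates H3K27 through EZH1 or EZH2.

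All libraries came from one line of immortalized mouse embryonic fibroblasts labelled 6KO, which lacks Setdb1, Suv39h1, Suv39h2, Ehmt1, Ehmt2 and Ring1b, so every group, controls included, carried these deletions. The labels do not say whether the line is a single clone. The control group (scr) was transduced with a control shRNA and the knockdown group with an shRNA against Ring1a (gene symbol Ring1), each from a lentivirus at a multiplicity of infection of 2 with blasticidin selection at 7 ug/ml for 3 days. The inhibitor group carried the control shRNA and was cultured with 1 uM DS3201, an inhibitor of EZH1 and EZH2, for 7 days. The combined group carried the Ring1a shRNA and received the same DS3201 treatment. Each group had 2 polyA RNA libraries, 1 in each of 2 sets named here after the prefixes 20 and 28 of the columns. No label says whether the 2 libraries of a group came from separate cultures, so the p-values reflect only how much these libraries varied, and that variation may be technical. Cells with intact H3K9 methyltransferases or Ring1b were not analysed here.

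The libraries held 12738585 to 23688253 counts. The targeted gene Ring1 was at 20.2 and 9.73 CPM (counts scaled by library size with TMM factors) in the control libraries of sets 20 and 28, and the knockdown libraries held 4.51 and 1.41 CPM. With DS3201 it was at 20.4 and 7.51 CPM with the control shRNA and at 3.52 and 2.04 CPM with the Ring1a shRNA, so it was lower in all 4 knockdown libraries than in the library of the same set with the control shRNA. Its averaged log2 fold change of -2.33 ± 0.54 (SE) did not pass in edgeR (adjusted p = 1.00, unadjusted p = 0.00400) and passed in DESeq2 (adjusted p = 0.0210). Of 12 fibroblast markers, summed levels were 23450 to 26226 CPM without DS3201 and 16046 to 19131 CPM with it; collagen genes were high in every library, whereas Thy1, a surface marker of many fibroblasts, was at 0 to 0.428 CPM. The marker of pluripotent cells Pou5f1 was at 0 to 0.113 CPM.

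MERVL-int transcripts were several times more abundant in all 4 libraries treated with DS3201 than in the 4 untreated ones. In set 20 MERVL-int was at 201 CPM in the control library, 170 CPM with the Ring1a shRNA, 931 CPM with DS3201 and 977 CPM with both. In set 28 it was at 264, 256, 2195 and 2355 CPM in the same order. The treated and untreated libraries did not overlap, and within the treated libraries set 28 was above set 20. The group means were 233 ± 44.7 CPM (SD, n = 2) in the control, 213 ± 61.2 CPM in the knockdown group, 1563 ± 894 CPM in the inhibitor group and 1666 ± 975 CPM in the combined group. In this order of levels, the knockdown and control groups did not differ beyond their spread, nor did the inhibitor and combined groups. MERVL-int took 0.0176% to 0.0257% of all counts without DS3201 and 0.0972% to 0.235% with it. Because RNA was measured in bulk, more cells that transcribe MERVL and more MERVL RNA per cell cannot be told apart.

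The group means of the promoter entry MT2_Mm followed the same order at a lower count. In set 20 it was at 25.0 CPM in the control library, 25.3 CPM with the Ring1a shRNA, 78.3 CPM with DS3201 and 86.3 CPM with both. In set 28 it was at 31.3, 29.7, 136 and 195 CPM. Again the lowest treated library lay above the highest untreated one, and the combined library of set 28 was the highest. The group means were 28.1 ± 4.44 CPM (SD, n = 2), 27.5 ± 3.11 CPM, 107 ± 40.7 CPM and 140 ± 76.7 CPM. Counting error alone was at most 3.19% of a value for MERVL-int and 9.44% for MT2_Mm (half-width of the exact 95% binomial interval), and the counting intervals of MT2_Mm in the 2 sets overlapped without DS3201.

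**Figure D1:**
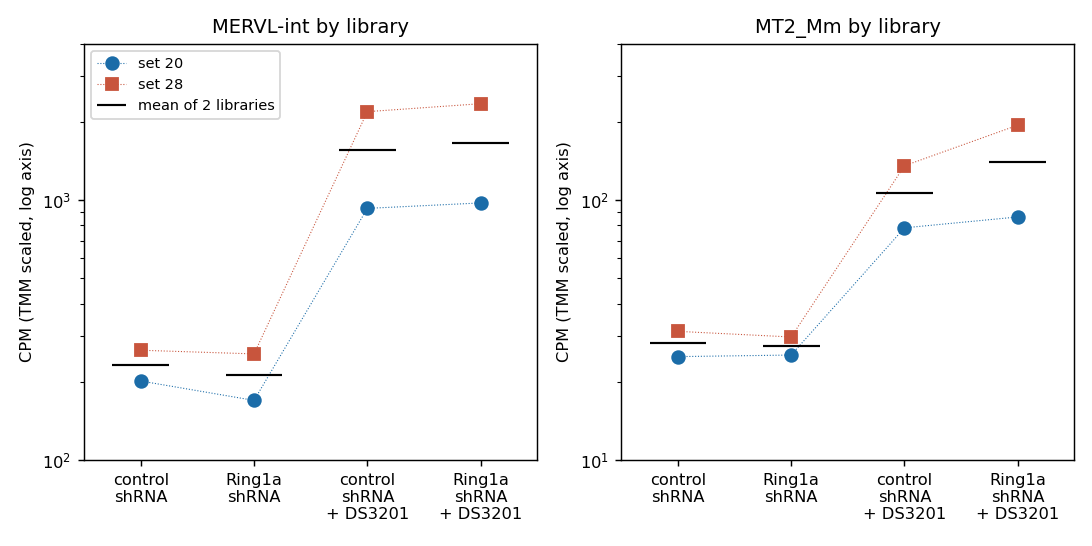
Levels of MERVL-int (left) and MT2_Mm (right) in each library, in CPM scaled by TMM on a log axis; circles are set 20, squares set 28, black bars the mean of the 2 libraries of a group, and dotted lines join libraries of a set. All 4 libraries with DS3201 lie above all 4 without it, from 931 CPM up for MERVL-int against 264 CPM and below.

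Averaged over both shRNAs, DS3201 raised MERVL-int by 2.86 ± 0.42 on the log2 scale (SE; 7.25-fold; 95% interval 1.86 to 3.85; edgeR quasi-likelihood test, adjusted p = 0.0163, higher in 4 of 4 pairs of libraries within a set). MT2_Mm, the promoter, rose by 2.14 ± 0.32 (4.41-fold; 95% interval 1.38 to 2.90; adjusted p = 0.0177, higher in 4 of 4 pairs). In this comparison 5.24% of all entries and 1.57% of repeat subfamilies (14 of 894) were called higher, and none of the repeat subfamilies was called lower; 136 repeat subfamilies were at an unadjusted p under 0.05 and DESeq2 called 47, all higher. The median log2 fold change was 0.04 over all entries and 0.38 over repeat subfamilies. With the set as a replicate block, where 12.9% of all entries were called higher, the values were 2.75 ± 0.19 for MERVL-int (adjusted p = 0.00028) and 2.06 ± 0.18 for MT2_Mm (adjusted p = 0.000697). The fit without the block did not keep these calls under every removal of a library. The MERVL-int call was lost without the control or knockdown library of set 20, or without the control, inhibitor or combined library of set 28 (adjusted p = 0.0509 to 0.0666). The MT2_Mm call was lost without the control or knockdown library of set 20 or the control or inhibitor library of set 28 (adjusted p = 0.0524 to 0.0698). With the block both calls were kept in all 8 removals.

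With each shRNA taken alone, the 2 libraries per group gave the same direction but the call depended on the fit. With the control shRNA, MERVL-int was 6.71-fold higher with DS3201 (log2 2.75 ± 0.58, edgeR adjusted p = 0.107; with the replicate block 2.62 ± 0.27, adjusted p = 0.00331), with ratios of 4.62 in set 20 and 8.30 in set 28. With the Ring1a shRNA it was 7.83-fold higher (log2 2.97 ± 0.59, edgeR adjusted p = 0.0984; with the block 2.87 ± 0.27, adjusted p = 0.0023), with ratios of 5.76 and 9.20. For MT2_Mm the folds were 3.81 with the control shRNA (log2 1.93 ± 0.45, edgeR adjusted p = 0.126; with the block adjusted p = 0.00868) and 5.10 with the Ring1a shRNA (log2 2.35 ± 0.45, adjusted p = 0.092; with the block adjusted p = 0.00457). Without the block 0.726% and 0.602% of all entries were called higher with the control and the Ring1a shRNA, and with it 6.62% and 6.05%. With the block, the MT2_Mm call with the control shRNA was lost without the control library of set 20 or the control or inhibitor library of set 28, and its call with the Ring1a shRNA without the combined library of set 28 (adjusted p up to 0.0770). The combined group exceeded the control group 7.15-fold for MERVL-int (edgeR adjusted p = 0.0759; with the block 0.00239) and 4.99-fold for MT2_Mm (adjusted p = 0.0692; with the block 0.00366), where 1.43% of all entries were called higher without the block and 9.21% with it.

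Neither entry passed in any comparison of the Ring1a shRNA with the control shRNA, and the intervals were wide. Without DS3201 the log2 difference was -0.13 for MERVL-int (95% interval -1.44 to 1.18) and -0.03 for MT2_Mm (-1.07 to 1.01). With DS3201 it was 0.09 for MERVL-int (-1.22 to 1.40) and 0.39 for MT2_Mm (-0.64 to 1.42). The replicate block narrowed these to between -0.75 and 0.43 for MERVL-int and between -0.60 and 0.56 for MT2_Mm without DS3201, and to between -0.50 and 0.68 and between -0.22 and 0.92 with it. The interaction, which asks whether DS3201 acted differently under the 2 shRNAs, was 0.22 ± 0.77 for MERVL-int and 0.42 ± 0.61 for MT2_Mm (95% intervals -1.63 to 2.08 and -1.04 to 1.89). In the averaged knockdown comparison edgeR called 0% of all entries, with 468 at an unadjusted p under 0.05 and neither MERVL-int nor MT2_Mm among them, and DESeq2 called 24, again without these 2. The sign for MT2_Mm without DS3201 and for MERVL-int averaged over both treatments changed with the scaling of the libraries.

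**Figure D2:**
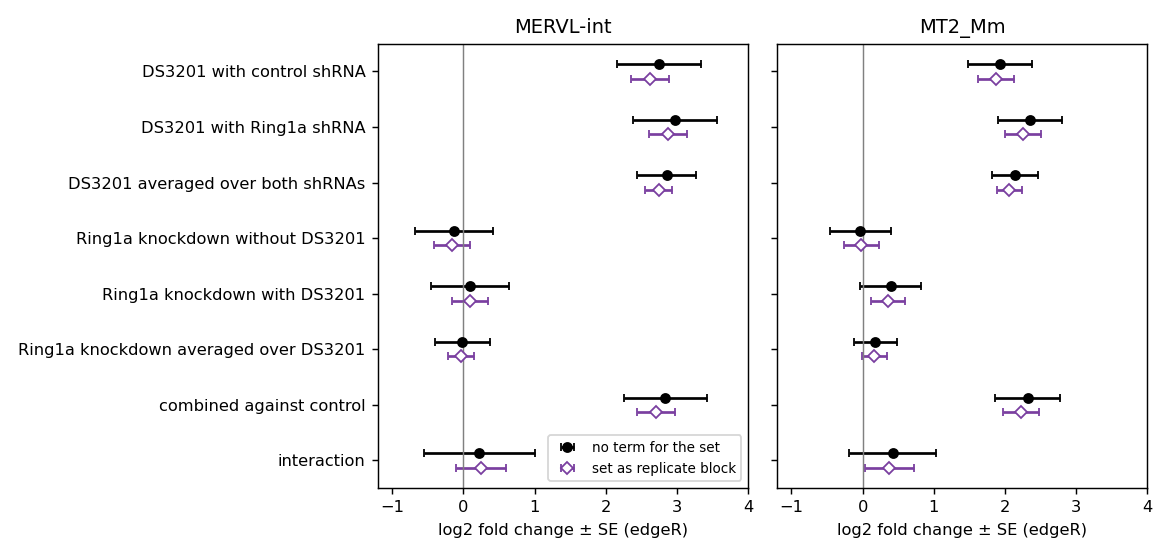
Log2 fold changes with standard errors for MERVL-int (left) and MT2_Mm (right) in each comparison; filled circles are the fit without a term for the set and open diamonds the fit with the set as replicate block. The comparisons with DS3201 lie between 1.88 and 2.97, and those of the Ring1a knockdown lie around 0.

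The ratios with DS3201 were larger in set 28 than in set 20, but a test of this difference did not pass. Averaged over both shRNAs, DS3201 gave a MERVL-int ratio of 5.16 in set 20 and 8.73 in set 28, and a MT2_Mm ratio of 3.26 and 5.32. A term for this difference (set 28 minus set 20, added after the data were seen) was 0.76 ± 0.24 on the log2 scale for MERVL-int (edgeR unadjusted p = 0.0132, adjusted p = 0.26) and 0.71 ± 0.24 for MT2_Mm (unadjusted p = 0.0197, adjusted p = 0.314). Neither passed, and 1.37% of all entries did.

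In these libraries MERVL-int rose by a larger factor than MT2_Mm did with DS3201. There were 8.06 and 8.46 MERVL-int counts for each MT2_Mm count in the control libraries of sets 20 and 28, and 6.69 and 8.61 in the knockdown libraries. With DS3201 there were 11.9 and 16.2 in the inhibitor libraries and 11.3 and 12.1 in the combined libraries. All 4 treated libraries were above all 4 untreated ones. The log2 ratio of MT2_Mm to MERVL-int was -3.67 ± 0.23 (SD, n = 4) with DS3201 and -2.98 ± 0.17 without, a difference of -0.69 (exact permutation test, two-sided, p = 0.0286, the smallest that 4 against 4 allows; Benjamini-Hochberg adjusted over 3 ratio tests, 0.0286). When libraries were permuted only within their set the exact p was 0.0556, above the threshold and again the smallest possible. Neither ratio is a comparison of levels, since the 2 parts differ in length, and how reads spanning the LTR and the internal part were assigned is not stated in the labels.

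The share of the ERVL family taken by MERVL rose in the same libraries. MERVL-int and MT2_Mm made up 23.5% and 27.4% of ERVL counts in the control libraries of sets 20 and 28, and 20.4% and 25.8% in the knockdown libraries. The share was 53.3% and 64.4% in the inhibitor libraries and 53.8% and 72.0% in the combined libraries, so MERVL held the larger part of the family's counts in every treated library and in no untreated one. Set against the other ERVL entries, the members were 4.94-fold higher with DS3201 (log2 difference 2.31; exact permutation test, two-sided, 4 against 4, p = 0.0286, adjusted over 3 ratio tests 0.0286). Permuted only within the sets, the exact p was 0.0556, above the threshold and the smallest possible. The summed level of the other ERVL entries was 735 to 824 CPM without DS3201 and 886 to 1289 CPM with it.

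**Figure D3:**
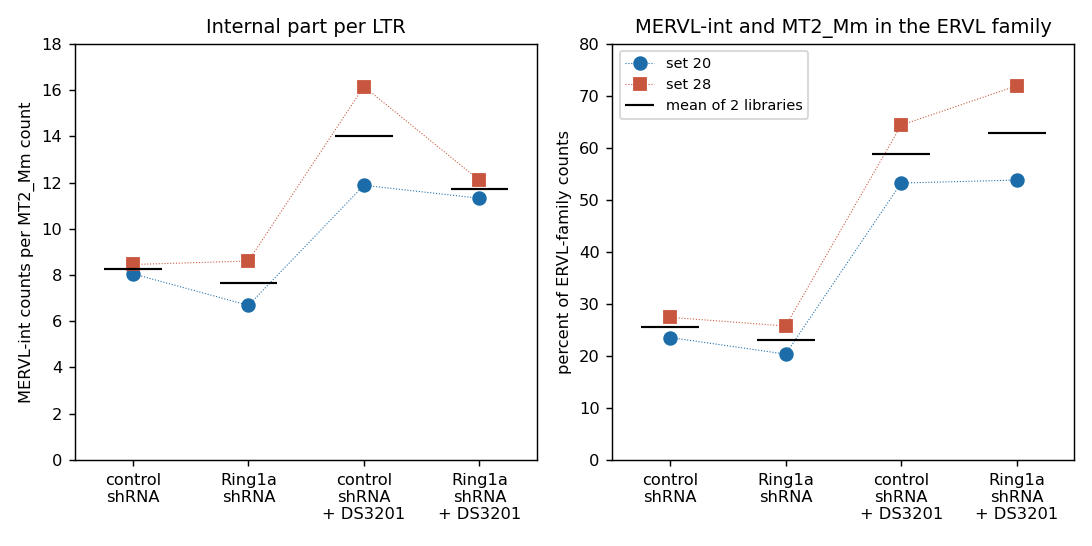
MERVL-int counts per MT2_Mm count (left) and the percent of ERVL-family counts held by both entries (right) in each library; circles are set 20, squares set 28 and black bars group means. The internal part per LTR count ran from 6.69 to 8.61 without DS3201 and from 11.3 to 16.2 with it, and the family share from 20.4% to 27.4% and from 53.3% to 72.0%.

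None of the other 83 ERVL subfamilies that were tested passed in the averaged DS3201 comparison by edgeR, beside 1.57% of all repeat subfamilies. At an unadjusted p under 0.05 in edgeR there were 10 (12%), beside 15.2% of all repeat subfamilies. DESeq2 called 4 of the 83, beside 47 of all 894 repeat subfamilies. These counts lay near those over all repeats and do not set the 83 apart. Their median log2 fold change was 0.38, close to the median over all repeat subfamilies, and 68 were positive. With the replicate block 7 passed, all higher, beside 9.96% of all repeat subfamilies. The closest relatives of the members were taken from a list of 10 entries in the table, of which 1, ERVB4_2-I_MM-int, belongs to another family (ERVK) and was at -0.24. Older MT2 LTRs, which derive from related ERVL elements, had smaller fold changes than MT2_Mm: the log2 fold change was 0.32 ± 0.18 for MT2A, 0.38 ± 0.19 for MT2B and 0.41 ± 0.19 for MT2C_Mm, and none of these passed. MT2B1 (0.79 ± 0.20, edgeR adjusted p = 0.0818; with the block 0.00935), MT2B2 (0.78 ± 0.28, adjusted p = 0.217; with the block 0.00959) and the internal entry ERVL-B4-int (0.94 ± 0.21, adjusted p = 0.0557; with the block 0.0169) passed with the block, and of these MT2B1 and ERVL-B4-int also passed in DESeq2 (adjusted p = 0.0101 and 0.00418). The internal entries MERVL_2A-int, ERVL-int and ERVL-E-int were at 0.43 ± 0.20, 0.48 ± 0.36 and 0.08 ± 0.19.

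IAP elements are another group of mouse LTR retroviruses, silenced in embryonic cells chiefly through SETDB1 and DNA methylation. For every 100 IAP counts there were 0.591 and 0.693 MERVL counts in the control libraries of sets 20 and 28, 0.574 and 0.713 in the knockdown libraries, 2.29 and 3.84 in the inhibitor libraries and 2.34 and 4.33 in the combined libraries. The members thus gained 4.80-fold on IAP with DS3201 (log2 difference 2.26; exact permutation test, two-sided, 4 against 4, p = 0.0286, adjusted over 3 ratio tests 0.0286; permuted within the sets 0.0556, above the threshold). Of 25 IAP entries, 2 were called higher by edgeR and 10 with the replicate block, with a median of 0.46. Of 87 tested ERVL-MaLR entries, a related group of non-autonomous LTR elements, 1 was called higher and 7 with the block, with a median of 0.32. Over all repeat subfamilies these shares were 1.57% and 9.96%, and the ERVL-MaLR counts were near them.

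By fold change in the averaged DS3201 comparison, MERVL-int ranked 6 and MT2_Mm ranked 12 of 894 repeat subfamilies, and they ranked 1097 and 1304 of 15287 entries. The 5 subfamilies above MERVL-int were RLTR3_Mm (log2 4.46), IAPEY5_I-int (3.77), LTR86A2 (3.55), MLT1E2-int (3.49) and ERVB4_2-LTR_MM (3.02). They had mean log2 CPM values over the libraries of -1.21, 0.48, -0.66, -0.93 and 1.18, against 9.15 for MERVL-int and 5.83 for MT2_Mm. LTR86A2 and MLT1E2-int did not pass (edgeR adjusted p = 0.0994 and 0.104). The 14 called subfamilies also included ERVB4_3-I_MM-int (2.45), an ERVK internal entry, and RLTR10B2 (1.33).

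**Figure D4:**
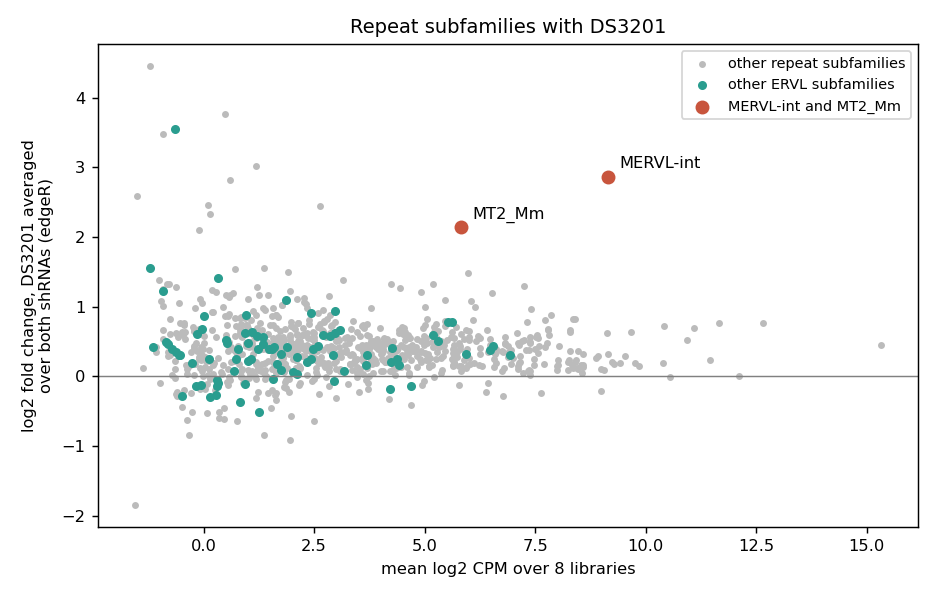
Log2 fold change with DS3201, averaged over both shRNAs, against mean log2 CPM for the 894 tested repeat subfamilies; MERVL-int and MT2_Mm are large red points, other ERVL subfamilies green and the rest grey. MERVL-int (2.86) and MT2_Mm (2.14) lie above the other subfamilies of like abundance, and the subfamilies with higher fold changes are at low counts.

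Of 20 genes listed as activators of MERVL in embryos or embryonic stem cells, 18 were in the table and 13 were tested. Of these, 7 were called higher with DS3201 and 10 with the replicate block, beside 5.24% and 12.9% of all entries. None was called lower, and the median log2 fold change was 5.06 against 0.04 over all entries. Of the 18 entries, 7 to 9 were at 0 counts in each untreated library and 0 to 3 in each treated one. Genes that passed the filter only through the DS3201 groups could only be seen to rise. The list was also chosen with earlier results of these data known, so these values are a description. The tested genes include Zscan4a to Zscan4f, close paralogs that may share reads, so the count and median are not over independent genes. Outside these paralogs Gata2 and Zfp352 passed in edgeR without the block, and Dux, Dppa2, Dppa4 and Nelfa did not. The summed level of the list was 56.7 to 66.1 CPM without DS3201 and 287 to 433 CPM with it. Without the combined library of set 20 fewer activators were called, and fewer of all entries as well. Dux, the homeobox factor that binds MT2_Mm, was at 0.0475, 0, 0.963 and 2.57 CPM in the control, knockdown, inhibitor and combined libraries of set 20. In set 28 it was at 0.134, 0.269, 0.442 and 2.11 CPM. Dux was thus at a low level throughout, with 7 counts in the untreated and 96 in the treated libraries, and its log2 fold change of 3.58 ± 0.91 did not pass (edgeR adjusted p = 0.0825; with the block 0.0177).

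Zfp352, a zinc-finger gene of the 2-cell stage, had 0 counts in all 4 untreated libraries. With DS3201 it was at 3.68 and 4.77 CPM in the inhibitor and combined libraries of set 20 and at 12.4 and 12.1 CPM in those of set 28. It was at least 196-fold higher, with 3 counts over the untreated libraries as the floor (edgeR adjusted p = 0.0168). Zscan4d, a telomere-linked gene of 2-cell-like cells, was at 0.238, 0.325, 46.2 and 47.1 CPM in the control, knockdown, inhibitor and combined libraries of set 20, and at 0, 0.0673, 43.1 and 25.7 CPM in set 28. Its log2 fold change was 7.83 ± 0.65 (edgeR adjusted p = 0.00346). Zscan4e, a close paralog with which it may share reads, rose 356-fold.

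Gata2, a transcription factor that activates MERVL in embryonic stem cells, was at 5.65, 11.3, 13.5 and 24.3 CPM in the control, knockdown, inhibitor and combined libraries of set 20. It was at 5.30, 9.15, 12.2 and 25.5 CPM in set 28. It rose by 1.25 ± 0.17 on the log2 scale with DS3201 (edgeR adjusted p = 0.0132), and was higher in each Ring1a shRNA library than in its control shRNA counterpart, which did not pass in edgeR (0.93 ± 0.17, adjusted p = 1.00, unadjusted p = 0.001) and passed in DESeq2 (adjusted p = 0.00506). Dppa2 and Dppa4, which act upstream of Dux, differed between the sets. Dppa4 was at 0, 0, 0.906 and 1.00 CPM in set 20 and at 7.92, 6.12, 8.66 and 6.77 CPM in set 28, and Dppa2 at 0.475, 0.569, 5.15 and 5.96 CPM and at 6.78, 5.12, 8.92 and 5.56 CPM. Neither passed with DS3201 (edgeR adjusted p = 0.952 for Dppa4 and 0.649 for Dppa2).

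**Figure D5:**
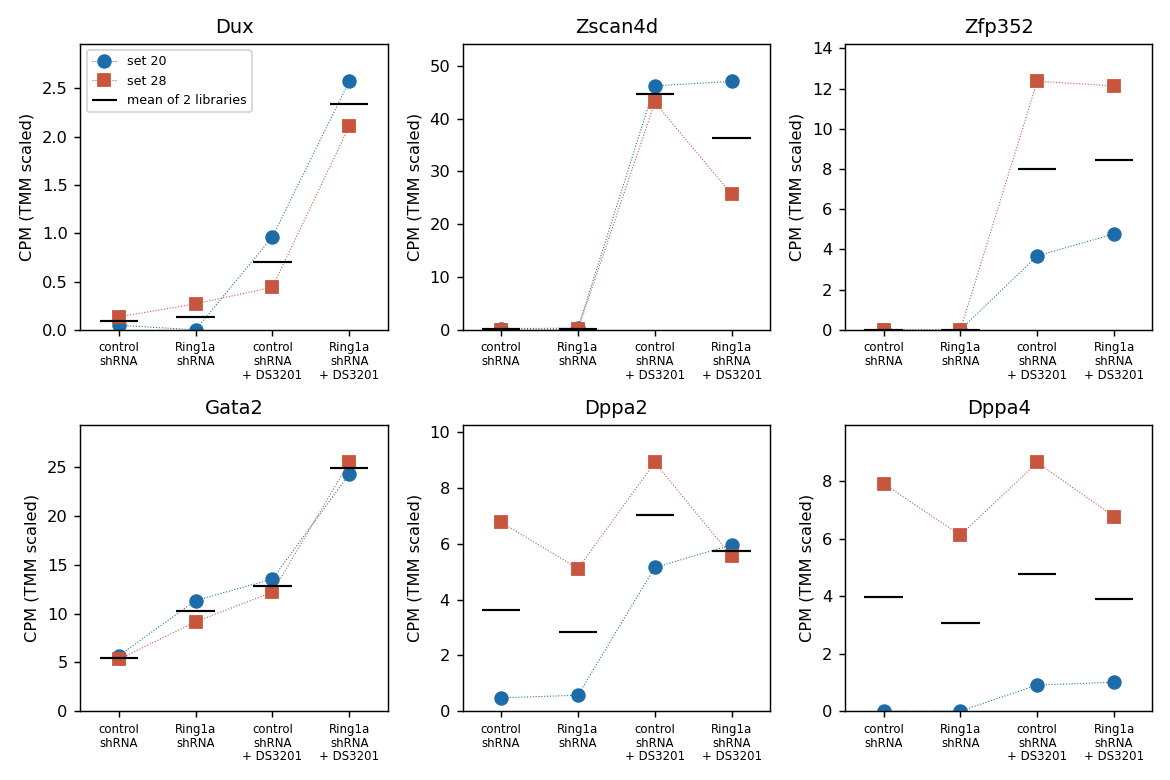
Levels in CPM scaled by TMM of 6 genes listed as activators of MERVL, by group, on linear axes; circles are set 20, squares set 28 and black bars group means. Zfp352 and Zscan4d are at or near 0 in every untreated library, Dux stays below 2.6 CPM, and Dppa4 is higher in set 28 than in set 20 in every group.

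The 2-cell embryo list, which shares the Zscan4 genes, Dux and Zfp352 with the activators, held 35 entries in the table and 28 tested. DS3201 raised 22 of them by edgeR and 28 with the replicate block, beside 5.24% and 12.9% of all entries. None fell, and the median log2 fold change was 6.54 against 0.04 over all entries. Of the 35 entries, 12 to 16 were at 0 counts in each untreated library and 1 or 2 in each treated one. The filter by group keeps genes counted only with DS3201, and such genes could only be seen to rise. The list was also chosen with earlier results of these data known. The number called, the direction and the median are therefore a description. The summed level was 31.3 to 67.2 CPM without DS3201 and 552 to 802 CPM with it. Set 20 was above set 28 already without DS3201, at 54.8 and 67.2 against 31.3 and 42.1 CPM (control and knockdown). The treated libraries kept this order, at 788 and 802 against 602 and 552 CPM (inhibitor and combined). For MERVL-int set 28 was above set 20, again both without and with DS3201. Without the combined library of set 20 fewer of the list were called, and fewer of all entries as well. Pramef6 had 0 counts without DS3201 and was at least 77-fold higher with it (edgeR adjusted p = 0.0561; with the block 0.0019). Several members belong to gene clusters of near-identical copies, whose reads may be split among them. With the Ring1a knockdown averaged over DS3201 none of the 28 passed in edgeR, which called 0% of all entries. DESeq2 called none either and gave no adjusted p for 4 of the 28. At an unadjusted p under 0.05 in edgeR there were 2 (7.14%), beside 3.06% of all entries.

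Of 30 tested genes listed as repressors of MERVL, 1 (3.33%) was called higher with DS3201, a share below the 5.24% of all entries, and none lower, with a median log2 fold change of 0.03. The called gene was Rybp, a subunit of non-canonical PRC1, which was at 68.3, 71.6, 119 and 108 CPM in the control, knockdown, inhibitor and combined libraries of set 20 and at 65.7, 65.2, 153 and 104 CPM in set 28 (log2 0.83 ± 0.14, edgeR adjusted p = 0.0227). This call was lost without either control library, either knockdown library or either combined library. Hdac2, a histone deacetylase, was at 0.57 ± 0.18 (adjusted p = 0.143; with the block 0.046), Trim28 at 0.18 ± 0.20, Kdm1a at 0.15 ± 0.13, Ring1 at -0.10 ± 0.52 and Setdb1 at -0.51 ± 0.33. Transcripts of the deleted genes Setdb1, Ehmt1, Ehmt2, Suv39h1, Suv39h2 and Rnf2 (Ring1b) were counted in every library; counts over whole genes do not check the deletions. Of 9 perturbed genes none passed by edgeR or DESeq2 (0 at an unadjusted p under 0.05), with Ezh2 at 0.53 ± 0.27 (adjusted p with the block 0.0356) and Rnf2 at 0.43 ± 0.44.

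Markers of other cell types moved with DS3201 in part. Of 7 tested pluripotency genes, 3 were called higher, beside 5.24% of all entries. Esrrb rose 305-fold, from 1 count in the untreated libraries (exact 95% counting interval 54.3 to 12100, edgeR adjusted p = 0.00794). The other called genes were Tfcp2l1 (log2 5.41, edgeR adjusted p = 0.0113) and Klf4 (log2 1.62 ± 0.24, edgeR adjusted p = 0.0179). Sox2 did not pass (at least 25.3-fold, adjusted p = 0.126; with the block 0.0152), and Pou5f1 and Prdm14 were near 0. Dppa5a was lower in all 4 treated libraries than in the untreated library of the same set and shRNA (log2 -1.87 ± 0.64, edgeR adjusted p = 0.185; with the block 0.0199), Nanog was at -0.30 ± 0.40 and Klf2 at 0.42 ± 0.21. Fewer pluripotency genes were called without the combined library of set 20 or that of set 28, and fewer of all entries as well. Summed levels ranged from 28.3 to 34.6 and from 58.4 to 89.5 CPM for 10 pluripotency genes, from 11.4 to 22.6 and from 40.5 to 64.5 CPM for 5 endothelial, from 6.80 to 15.8 and from 13.4 to 18.6 CPM for 6 blood and macrophage, and from 65.8 to 99.9 and from 115 to 153 CPM for 6 epithelial markers, without and with DS3201. Flt4 and Tek of 5 tested endothelial markers and Lyz2 of 5 tested blood and macrophage markers were called higher, beside 5.24% of all entries. Neither tested epithelial marker (Krt19, Krt8) was, although Krt19 (0.64 ± 0.17) passed in edgeR with the block (adjusted p = 0.018). Krt8 was at -1.39 ± 1.18. The other endothelial markers did not pass: Cdh5 and Pecam1 were between 0 and 1.93 CPM in every library, and Kdr was at -0.33 ± 0.30. Nor did the other tested blood and macrophage markers, with Cd68 at -0.94 ± 0.64, Ptprc at 0.76 ± 0.67, Csf1r at 0.37 ± 0.38 and Cd14 at 0.05 ± 0.52. Of 11 tested fibroblast markers 1, the receptor gene Pdgfrb, was called lower (log2 -1.50 ± 0.17, adjusted p = 0.00794), and 6 with the block, beside 0.216% and 4.16% of all entries; Postn was at -1.22 ± 0.48 and Col3a1 at -1.07 ± 0.41. The part of these cell-type markers in the rise of MERVL was not tested.

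Across the 8 libraries, the entries whose log2 CPM followed MERVL-int most closely were ranked by Pearson correlation among 12745 genes and 833 other repeat subfamilies that reached 1 CPM in a group. The libraries share the treatment and the set, and 628 of 14539 ranked entries had r above 0.9, so these values are a description; the 14539 also include predicted gene models, which were not named. The 8 leading genes were Nrk (r = 0.995), Tmem132c (0.992), Tenm3 (0.992), Camk4 (0.991), Pnma2 (0.991), Gnai1 (0.991), Prdm8 (0.990) and Ms4a2 (0.990). Nrk, a kinase gene of the placenta, led the ranking and had 4 counts over the untreated libraries. It was at 0.0475, 0, 1.59 and 3.08 CPM in the control, knockdown, inhibitor and combined libraries of set 20. In set 28 it was at 0.134, 0.0673, 14.5 and 14.3 CPM. As for MERVL-int, its treated libraries of set 28 lay above those of set 20, a likeness that the ranking selects for. Among repeats the order was RLTR27 (r = 0.993), MT2_Mm (0.993), ERVB4_2-LTR_MM (0.971), ERVB7_3-LTR_MM (0.971) and RLTR3_Mm (0.963). RLTR27 was higher with DS3201 by much less, from 4.51 to 5.57 CPM without DS3201 to 7.41 to 9.84 CPM with it, and did not pass (log2 0.80 ± 0.23, edgeR adjusted p = 0.122; with the block 0.0222).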

How the data were processed

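RNA-seq of 8 libraries in 4 groups of 2 was analysed. The authors deposited unnormalized whole-number counts for genes and for repeat subfamilies. The submitters' processing notes name Trim Galore, TopHat2 and the build mm10. How reads were counted, with several alignments or by strand, and which repeat annotation was used is not given in the sources used here. Of 16 columns, 8 could be tied to no labelled sample and were left out. Column prefixes 20 and 28 define the sets; the labels number the replicates and batches without saying which prefix is which.

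The tests used edgeR 4.0.16 in R 4.3.3: filterByExpr by group, TMM scaling, a robust quasi-likelihood fit of group means to all 8 libraries, two-sided F tests, and Benjamini-Hochberg adjustment over all 15287 entries tested at a threshold of 0.05. CPM values use TMM; correlations use log2 CPM with a prior count of 2. Of the alternatives, DESeq2 1.42.0, other scalings, no filter, fewer libraries and the set as a replicate block were run. Differences between the sets correlated between groups across entries with r of 0.559 to 0.897, every pair over 0.1, so the prefix pairs the libraries; the source of this pairing is the column prefix. Ratios of counts were tested by exact permutation of libraries. At these depths 3 counts, the floor for a group at 0, equal 0.127 to 0.236 CPM. These floors and the counting intervals treat each read as a separate molecule and leave out variation between libraries. Reads lacking molecular identifiers can repeat a molecule, so the counting intervals may be too narrow even for counting error. The test script was checked on simulated counts.

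The members and gene lists were chosen with earlier results of these data known. Named entries were the members, the ERVL relatives, the 8 genes and 5 other repeats most correlated with MERVL-int (at least 1 CPM in a group mean, predicted models left out), and, per list, all tested members up to 6, or else the 3 with the largest change plus Dux, Zscan4d, Zfp352, Dppa2, Dppa4, Gata2, Trim28, Kdm1a and Ring1. Other entries named were chosen after their values were seen. The sequences of the elements were not used here.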

Additional observations from a re-analysis of the deposited data

How the results depend on the processing

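Under DS3201 and in the combined comparison, all 182 alternatives kept MERVL-int and MT2_Mm higher, by 1.42 to 3.47 on the log2 scale. The comparisons within 1 shRNA and of combined against control, which edgeR did not call, were called with the replicate block (MERVL-int 2.62, 2.87 and 2.71; MT2_Mm 1.88, 2.25 and 2.23 for DS3201 with control shRNA, with Ring1a shRNA and combined) and by DESeq2 (MERVL-int 2.71, 2.97 and 2.83; MT2_Mm 1.90, 2.35 and 2.31), and MT2_Mm combined also with no filter on low counts (2.28). The Ring1a knockdown changed sign for MT2_Mm without DS3201 when libraries were scaled by totals only (0.00736), and for MERVL-int averaged over DS3201 by totals only (0.0532) and with no filter (0.00252); none was called. With permutation within the sets, a replicate block, the ratio differences of -0.69, 2.31 and 2.26 had p = 0.0556 because fewer permutations exist.

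With the replicate block, counts of higher entries moved from 0 to 3 for the relatives, 0 to 1 for the perturbed genes, 1 to 2 for the repressors, 0 to 7 for other ERVL, 1 to 7 for ERVL-MaLR and 2 to 10 for IAP. DESeq2 gave 2, 0, 2, 4, 6 and 4. The repressors were also 2 when scaled on gene rows or unfiltered, and ERVL-MaLR 2 when scaled by totals or unfiltered. Over all entries, 801 were higher and 33 lower in edgeR, 1974 and 636 with the block, and 1343 and 263 in DESeq2. The cause of these differences was not tested.

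Leaving out 1 library at a time, where the lone library of a group is assumed to vary like the others, gave for DS3201 averaged, with control shRNA, with Ring1a shRNA and combined 2.45 to 3.10, 1.95 to 3.23, 2.19 to 3.47 and 2.06 to 3.33 for MERVL-int, and 1.79 to 2.34, 1.42 to 2.27, 1.64 to 2.82 and 1.61 to 2.78 for MT2_Mm. The knockdown without, with and averaged over DS3201 and the interaction gave -0.46 to 0.12, -0.68 to 0.87, -0.41 to 0.37 and -0.55 to 1.01 for MERVL-int, and -0.18 to 0.14, -0.31 to 0.92, -0.17 to 0.44 and -0.28 to 0.95 for MT2_Mm. The 3 ratio differences ran from -0.74 to -0.57, 2.07 to 2.46 and 2.10 to 2.41, each with p = 0.0571 in the exact permutation test, the smallest that 4 against 3 allows. Counts of higher entries ran from 13 to 19 for 2-cell genes, 4 to 7 for activators, 0 to 1 for repressors, 1 to 3 for pluripotency genes, 0 to 2 for relatives, 0 to 3 for other ERVL, 0 to 7 for ERVL-MaLR and 0 to 3 for IAP. The number of all entries called higher also changed with the library removed, both without and with the replicate block. The ranges of these list counts are therefore not a result about the lists alone. Whether a list moved more than all entries did was not tested. With the replicate block as well, the knockdown without DS3201 ran from -0.45 to 0.18 for MERVL-int and -0.32 to 0.23 for MT2_Mm. The counts then ran from 24 to 29, 8 to 11, 1 to 11, 3 to 4, 0 to 7, 0 to 19, 1 to 52 and 2 to 15 in the same order.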
